A study of Mus musculus with 8 samples.

Results

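The 43 genes described here encode the machinery that copies the genome and supplies its building blocks. They were chosen by name, as the rows of the deposited expression table whose symbol was on a list of replication and nucleotide supply genes. All 43 were among the 12528 genes of the table, and all 43 passed the filter on low values. By role, 11 genes belong to origin licensing, 6 to helicase activation, 17 to the polymerases and the fork, 4 to nucleotide supply, 2 to the copying of DNA methylation, and 3 regulate entry into S phase. RNA was measured by RNA-seq in mouse embryonic fibroblasts (MEFs), immortalized cell lines from wild-type (WT) and caveolin-1 knockout (Cav1KO) littermates. Caveolin-1 is the main structural protein of caveolae, the small invaginations of the plasma membrane. Cells of both genotypes were kept for 24 h on fibronectin-coated polyacrylamide hydrogels, either stiff (55 kPa) or soft (0.2 kPa). This gave 4 groups of 2 libraries each, named here by genotype and gel. The labels do not say whether the libraries of a group came from separate cultures, so the p-values measure only the spread between libraries, which may be technical.

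Before S phase, the origin recognition complex (ORC), CDC6 and CDT1 load rings of MCM2 to MCM7 onto origins, a step called licensing. CDC45 and the GINS complex then turn each ring into an active helicase, MCM10 assists, and the polymerases, the sliding clamp PCNA, its loader RFC and the single-strand binding protein RPA follow at the fork. Ribonucleotide reductase, thymidylate synthase and thymidine kinase provide the deoxynucleotides, and DNMT1 with UHRF1 restores the methyl marks on the new strand. Transcription of many of these genes is controlled by E2F factors, which are released when cyclin-dependent kinases bound to D and E cyclins phosphorylate the RB proteins.

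Library depth, read back from the deposited values, ranged from 17089836 to 19944952 reads. Values are in CPM, a unit that divides reads by library size, here scaled by trimmed means (TMM), and the lowest value of any member rested on 103 reads (Rfc1 in a WT soft library). The deleted gene, Cav1, had 949.8 to 1157 CPM in WT, while no Cav1KO library exceeded 0.411 CPM. Of 12 fibroblast markers, 10 were listed (Thy1 and Lum were not). The summed level of the listed ones was 7981 to 8002 CPM in WT stiff, 10351 to 10511 in WT soft, 3959 to 4765 in Cav1KO stiff and 11004 to 11163 in Cav1KO soft, so it was lower on the stiff gel in both genotypes, and its part in the results was not tested. No muscle, epithelial or endothelial marker was listed, in a table that holds only genes above an expression minimum. Cd68 was the 1 macrophage marker of 8 that was listed, at no more than 4.55 CPM, and Tubb3 the 1 neural or glial marker of 6, at 6.59 to 10.5 CPM in WT and 27.4 to 36.8 CPM in Cav1KO. The first WT soft library was below the second in all 43 members, with a median difference (first minus second, log2(CPM + 1)) of -0.27 and a range from -0.77 for Dnmt1 to -0.03 for Gins4. In the other 3 groups neither library was the lower one in more than 25 of the 43 members. These shares were not counted over all genes. The median log2(CPM + 1) over all genes tested was 4.708 in the first WT soft library and 4.709 in the second.

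Because E2F factors bind many promoters of this pathway, the promoters of the members were searched for the letters of an E2F site. RefSeq promoters (GRCm38.p6, 250 bases before to 50 after the start) were at hand for 35 of the 43 members. The letters searched on both strands were TTTCCCGC, TTTGGCGC, TTTCGCGC and TTTGCCGC. At least 1 of them was found in 14 of 35 members (40.0%), against 704 of all 27025 genes with a promoter (2.605%). A gene was counted if any of its promoters held a match. By promoter the shares were 14 of 43 for the members (32.558%) and 2.265% for all promoters. By role, 7 of 10 licensing genes held a match, 1 of 3 helicase activation genes, 4 of 14 polymerase and fork genes and both genes for the copying of methylation. None was found within this window in the 4 nucleotide supply genes or in the 2 S-phase regulators searched. The stretches below show matches upstream of the start, in capitals, on the strand of the gene.
Mcm5 (chr8:75109332-75109391, + strand): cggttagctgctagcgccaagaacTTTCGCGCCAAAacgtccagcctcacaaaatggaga
Mcm6 (chr1:128359782-128359841, - strand): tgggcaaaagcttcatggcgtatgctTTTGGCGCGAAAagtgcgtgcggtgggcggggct
Cdc6 (chr11:98907987-98908046, + strand): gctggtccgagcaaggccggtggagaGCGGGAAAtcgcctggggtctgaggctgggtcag
Orc1 (chr4:108579416-108579445, + strand): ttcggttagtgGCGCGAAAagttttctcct
Gins3 (chr8:95633507-95633536, + strand): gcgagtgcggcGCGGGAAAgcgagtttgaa
Pola1 (chrX:93632260-93632319, - strand): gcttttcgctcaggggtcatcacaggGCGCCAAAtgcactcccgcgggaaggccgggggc
Uhrf1 (chr17:56304102-56304161, + strand): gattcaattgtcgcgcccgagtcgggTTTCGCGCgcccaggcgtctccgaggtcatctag
These were chosen to show 1 match or more from each role that had any. The Uhrf1 stretch comes from a promoter downstream of another Uhrf1 promoter that held no match, and the Dnmt1 matches were placed likewise. In Mcm5 and Mcm6 a match on each strand overlapped the other, which gives a run of 12 capitals. The Orc1 and Gins3 stretches overlap an annotated exon (GENCODE, GRCm38), and the other stretches overlap none. The Mcm5 match began 153 bases before the start, and those of Mcm6 at 110 and 106 bases before it. A further match in Mcm6 began at 47 bases before the start and lies outside the stretch shown. Searching only the bases before the start left the letters in 28.571% of the members and 2.157% of all genes. The letters of a CHR element (TTTGAA or TTCGAA), which is known from promoters of mitotic genes, were in 7 of 35 members, against 21.661% of all genes, but in 24 of 31 genes (77.419%) of a list of 38 mitosis genes. Within the bases before the start alone, they were in 12 of 31 of these mitosis genes (38.71%), 7 of 35 members and 19.552% of all genes. The CCAAT box letters were in 65.714% of the members, 77.419% of the mitosis genes and 41.058% of all genes. The E2F letters were in 2 of 31 mitosis genes (6.452%). A match of letters is a description and no evidence of binding.

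Whether substrate stiffness moved replication genes in WT MEFs was asked first. On the stiff gel, 39 of the 43 members were higher than on the soft gel and none was lower (limma on log2(CPM + 1), Benjamini-Hochberg adjusted p below 0.05 over 12494 genes). Among all genes tested, 22.1% were higher and 26.3% lower. The fitted difference was positive in all 43 members, with a median of 0.67 (1.59-fold) and a range from 0.14 to 1.43. Over all genes it was positive in 6010 of 12494, with a median of -0.02. At an unadjusted p below 0.05, 40 members were higher and 0 lower, and edgeR and DESeq2 on the recovered reads each called 39 higher and 0 lower. In these bulk libraries, fewer cells in S phase and less RNA per cell cannot be told apart. The 4 members that missed the threshold in WT were Lig1 (0.57), Rfc4 (0.27), Gins4 (0.14) and Rpa3 (0.14), where the values are differences in log2(CPM + 1). Without the first WT soft library the count in WT was 32, with Gins3, Pola1, Pole, Prim2, Rfc1, Rfc5 and Dnmt1 below the threshold, and some of these calls were also lost without other single libraries.

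The same comparison in Cav1KO MEFs used none of the WT libraries for its group means. In these cells, 38 of the 43 members were higher on the stiff gel and none was lower, where 27.9% of all genes were higher and 28.2% lower. The median difference was 0.94 (1.92-fold), and 42 of 43 were positive, the exception being Rfc1. Over all genes 5971 of 12494 were positive. At an unadjusted p below 0.05 the counts were 38 higher and 0 lower, and edgeR and DESeq2 each called 38 higher and 0 lower. Differences in log2(CPM + 1) of members that missed the threshold were 0.38 for Pola1, 0.26 for Pole, 0.25 for Lig1, 0.21 for Dnmt1 and -0.65 for Rfc1. In all, 35 members passed the test in both genotypes, 4 in WT alone (Rfc1, Pola1, Pole and Dnmt1), 3 in Cav1KO alone (Gins4, Rfc4 and Rpa3), and Lig1 in neither. The shares of all genes in these classes were not counted. No member called in 1 genotype alone passed the test of the difference between the stiffness effects, given below (limma adjusted p from 0.055 to 0.25).

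**Figure D1:**
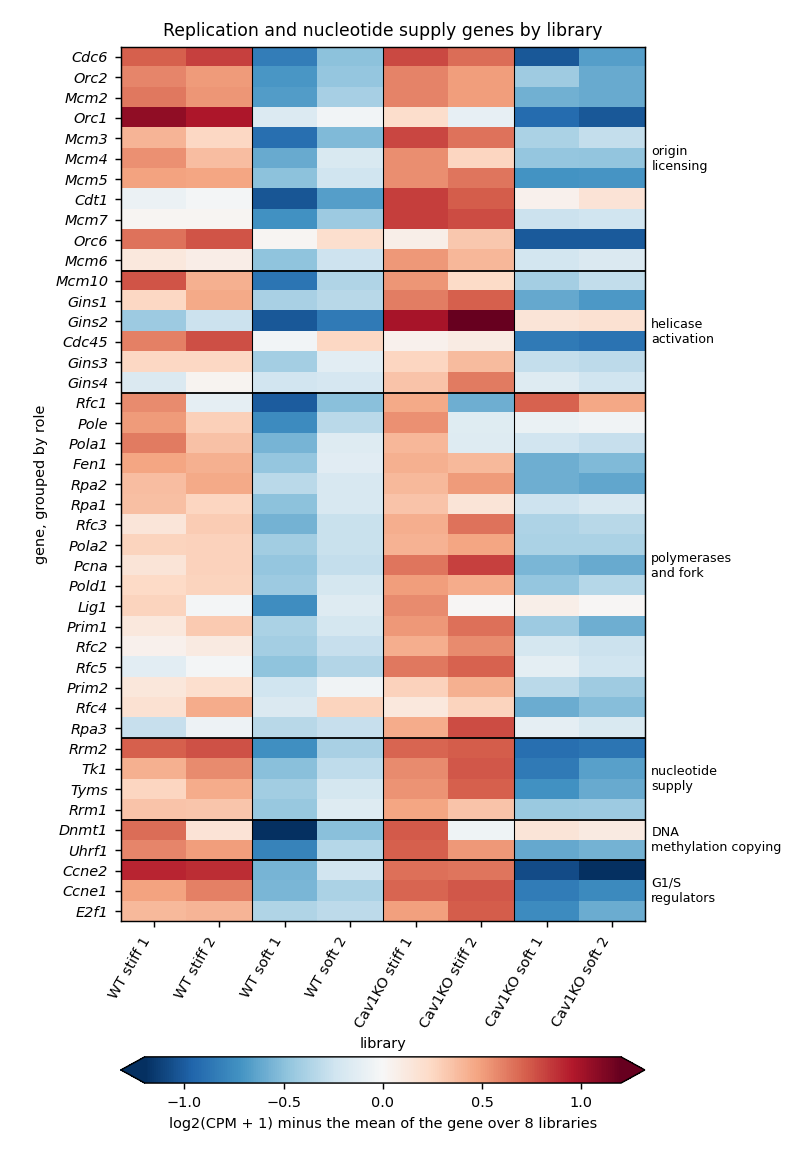
The color of each cell is log2(CPM + 1) of 1 member (rows, grouped by role) in 1 of 8 libraries (columns), minus the mean of that member over the libraries, with values beyond 1.2 drawn in the end colors. Stiff libraries are mostly red and soft libraries mostly blue in both genotypes, and the first WT soft library is below the second in every row.

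Levels per library did not overlap between the substrates in 41 of 43 members in WT. In Cav1KO they did not overlap in 39 members with the stiff libraries higher, and in Rfc1 with the stiff libraries lower. The share of all genes without overlap was not counted, so these counts only describe the members. Summed over the 43 members, the level was 6345 and 6291 CPM for WT stiff, 3337 and 4043 in WT soft, 7372 and 7240 in Cav1KO stiff, and 3585 and 3620 in Cav1KO soft. This sum is led by a few abundant genes. Per kb of the longest annotated transcript, Pcna had the highest mean level in each of the 4 groups, from 187 CPM per kb in Cav1KO soft to 466 in Cav1KO stiff. Mcm5 followed in WT stiff at 172 and Rrm2 at 147, and the lowest were Pole at 5.82 and Rfc1 at 3.45 CPM per kb, against a median of 33.7 over the members in that group.

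Licensing genes rose as a block, with 11 of 11 members higher on the stiff gel in each genotype. The median difference in log2(CPM + 1) was 0.85 in WT and 1.06 in Cav1KO. Cdc6, the ATPase that helps ORC to load the MCM ring (ENSMUSG00000017499, chromosome 11, 98907801 to 98923940), was at 68.2 and 73.0 CPM in WT stiff, 22.7 and 28.9 in WT soft, 71.7 and 65.8 in Cav1KO stiff, and 19.8 and 25.6 in Cav1KO soft. Its stiff libraries were all above 65 CPM and its soft libraries all below 29 CPM in both genotypes. It had the largest stiffness effect of the licensing genes, 1.43 ± 0.15 (SE) in WT, which is 2.69-fold, and 1.57 ± 0.15 in Cav1KO, which is 2.97-fold (limma adjusted p = 0.000155 and 5.74e-05).

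The 6 MCM genes encode the subunits of the replicative helicase ring. Mcm2 was at 419 and 392 CPM in WT stiff, 169.6 and 205 in WT soft, 409 and 384 in Cav1KO stiff, and 181 and 178 in Cav1KO soft. Mcm3 was at 304 and 272 CPM in WT stiff, 122 and 159 in WT soft, 399.6 and 359 in Cav1KO stiff, and 175 and 188 in Cav1KO soft. Mcm4 was at 257 and 227 CPM in WT stiff, 115 and 154 in WT soft, 258 and 209 in Cav1KO stiff, and 127 and 126 in Cav1KO soft. In these 3 subunits each stiff library was above each soft library of its genotype, and the effects in both genotypes lay between 0.85 and 1.14 on the log2 scale. Mcm5 (ENSMUSG00000005410, chromosome 8, 75109569 to 75128439) was at 582 and 578 CPM in WT stiff, 296 and 351 in WT soft, 615 and 652 in Cav1KO stiff, and 252 and 254 in Cav1KO soft. Mcm6 was at 274 and 265 CPM in WT stiff, 179.7 and 212 in WT soft, 360.1 and 331 in Cav1KO stiff, and 215 and 222 in Cav1KO soft. Mcm7 was at 336 and 337 CPM in WT stiff, 199 and 244 in WT soft, 588 and 572 in Cav1KO stiff, and 278 and 280.5 in Cav1KO soft. The rings' subunits thus differed in their response, from 1.38-fold for Mcm6 to 2.17-fold for Mcm2 in WT, and from 1.58-fold for Mcm6 to 2.50-fold for Mcm5 in Cav1KO. Of 60-base windows along Mcm7 transcripts, 18.8% also occur in other annotated genes, so the level of Mcm7 is uncertain.

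Cdt1 and the ORC subunits complete the licensing list. Cdt1, the loader that escorts the MCM ring, was at 89.0 and 91.7 CPM in WT stiff, 45.4 and 58.7 in WT soft, 167 and 155 in Cav1KO stiff, and 96.6 and 105 in Cav1KO soft. Orc1 was at 34.4 and 32.1 CPM in WT stiff, 14.1 and 15.5 in WT soft, 18.7 and 14.9 in Cav1KO stiff, and 7.95 and 7.35 in Cav1KO soft. Orc2 was at 54.99 and 51.99 CPM in WT stiff, 22.1 and 26.0 in WT soft, 55.2 and 52.0 in Cav1KO stiff, and 26.8 and 23.5 in Cav1KO soft. These 3 genes had a gap between substrates in both genotypes, and Cdt1 and Orc1 also had one between genotypes, in opposite directions. Orc6 (ENSMUSG00000031697, chromosome 8, 85299632 to 85308278) was at 148.5 and 159 CPM in WT stiff, 95.9 and 109 in WT soft, 98.6 and 118 in Cav1KO stiff, and 46.2 and 46.1 in Cav1KO soft. The library preparation does not mark strand, and 29.8% of Orc2 exon bases overlap the antisense gene Nif3l1 and 10.8% of Orc1 exon bases the antisense gene Gm12743, so reads of these pairs cannot be told apart there.

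**Figure D2:**
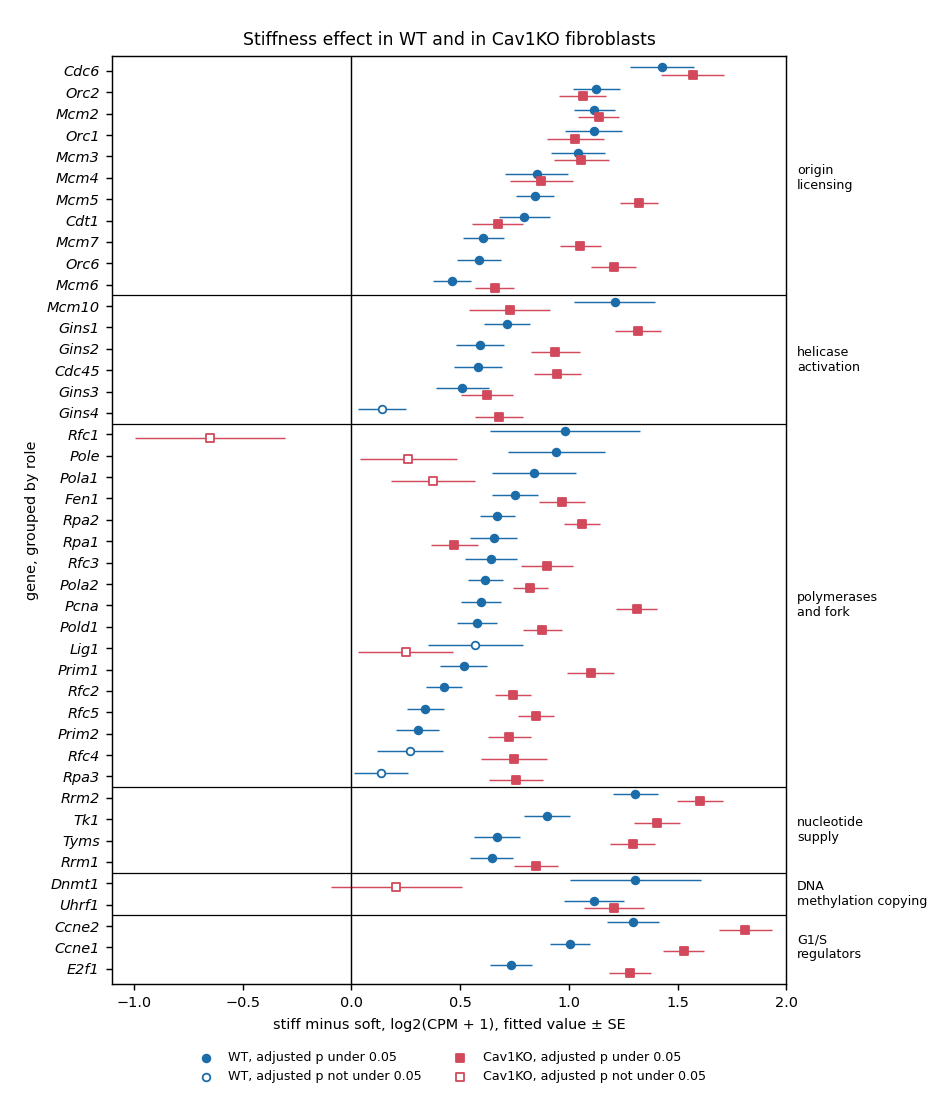
Each point is the fitted stiff minus soft difference in log2(CPM + 1) of 1 member, with its standard error, for WT (blue circles) and Cav1KO (red squares), and open symbols missed the threshold. The points are right of 0 in all 43 members in WT and in 42 in Cav1KO, where Rfc1 is at -0.65.

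Among helicase activation genes, 5 of 6 were higher on the stiff gel in WT and 6 of 6 in Cav1KO, with median differences of 0.59 and 0.83 in log2(CPM + 1). Mcm10, which helps the helicase to start, was at 52.1 and 41.3 CPM in WT stiff, 16.1 and 23.4 in WT soft, 44.3 and 35.7 in Cav1KO stiff, and 22.7 and 24.5 in Cav1KO soft. It had the largest effect of the group in WT, 1.21 ± 0.19 (2.32-fold, limma adjusted p = 0.000979), and 0.73 ± 0.19 in Cav1KO, where the adjusted p was 0.00971 and rose to 0.0598 without the first Cav1KO soft library. Gins1 was at 28.8 and 33.3 CPM in WT stiff, 18.1 and 18.9 in WT soft, 37.5 and 40.3 in Cav1KO stiff, and 15.4 and 14.6 in Cav1KO soft. Here the Cav1KO libraries were the highest on the stiff gel and the lowest on the soft gel, without overlap with WT on either. Cdc45 was at 76.5 and 86.4 CPM in WT stiff, 48.9 and 59.6 in WT soft, 52.0 and 53.7 in Cav1KO stiff, and 27.3 and 26.6 in Cav1KO soft.

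For the polymerases and the fork, 14 of 17 members were higher on the stiff gel in WT and 13 of 17 in Cav1KO, with median differences of 0.60 and 0.76 in log2(CPM + 1). Pcna, the sliding clamp that holds polymerases on DNA (ENSMUSG00000027342, chromosome 2, 132249162 to 132253314), was at 473 and 515 CPM in WT stiff, 307 and 348 in WT soft, 664 and 751 in Cav1KO stiff, and 289.8 and 278 in Cav1KO soft. Prim1, the catalytic subunit of primase, was at 52.9 and 60.5 CPM in WT stiff, 37.0 and 41.8 in WT soft, 70.0 and 77.4 in Cav1KO stiff, and 35.7 and 32.0 in Cav1KO soft. Both genes had the wider span between substrates in Cav1KO, with effects of 1.31 ± 0.09 (2.48-fold, limma adjusted p = 2.09e-05) for Pcna and 1.10 ± 0.11 (2.14-fold, limma adjusted p = 7.27e-05) for Prim1. The effects in WT were 0.60 ± 0.09 and 0.52 ± 0.11. Of the windows along Pcna transcripts, 16.99% also occur in another annotated gene, the pseudogene Pcna-ps2. Of Fen1 exon bases, 84.2% overlap the antisense genes Gm10143 and Tmem258, so the levels of Pcna and Fen1 are uncertain. The next largest antisense overlaps of this group were 15.1% for Rfc2 (Lat2), 12.7% for Rfc4 (Eif4a2) and 10.7% for Rfc5 (Wsb2).

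Some large subunits stood apart within this group. Pole, the catalytic subunit of the leading-strand polymerase, was at 44.95 and 38.4 CPM in WT stiff, 18.1 and 24.7 in WT soft, 46.1 and 28.1 in Cav1KO stiff, and 29.5 and 30.2 in Cav1KO soft. Rfc1, the largest subunit of the clamp loader (ENSMUSG00000029191, chromosome 5, 65261850 to 65335670), was at 20.4 and 12.4 CPM in WT stiff, 6.22 and 9.19 in WT soft, 18.8 and 8.604 in Cav1KO stiff, and 22.5 and 19.0 in Cav1KO soft. In the Cav1KO stiff group the first library was above the second by 1.05 on the log2(CPM + 1) scale for Rfc1, the widest gap of any member between libraries of a group. The effect of stiffness on Rfc1 was 0.98 ± 0.35 in WT (limma adjusted p = 0.0439) and -0.65 ± 0.35 in Cav1KO (limma adjusted p = 0.141). The WT call for Rfc1 was lost without the first WT stiff, either WT soft or either Cav1KO soft library. In Cav1KO, leaving out the first stiff library gave -1.18, which passed the threshold (limma adjusted p = 0.00936). Pole in WT (0.94 ± 0.22, limma adjusted p = 0.00811) lost its call without the first WT stiff library or the first WT soft library. In Cav1KO, Pole passed the threshold without the second Cav1KO stiff library and was at -0.09 without the first.

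The 4 nucleotide supply genes were all higher on the stiff gel in both genotypes, with median differences of 0.78 in WT and 1.35 in Cav1KO in log2(CPM + 1). Rrm2, the regulated small subunit of ribonucleotide reductase (ENSMUSG00000020649, chromosome 12, 24708241 to 24714146), was at 317 and 327 CPM in WT stiff, 115 and 146 in WT soft, 312 and 319 in Cav1KO stiff, and 102 and 104 in Cav1KO soft. Rrm1, the large subunit, was at 396 and 393 CPM in WT stiff, 227 and 279.8 in WT soft, 433 and 394 in Cav1KO stiff, and 228 and 229 in Cav1KO soft. The small subunit spanned 2.47-fold between substrates in WT and 3.04-fold in Cav1KO (limma adjusted p = 6.61e-05 and 1.65e-05), and the large one 1.56-fold and 1.802-fold (limma adjusted p = 0.00105 and 0.000184). Tyms, thymidylate synthase, was at 142 and 161 CPM in WT stiff, 88.2 and 101 in WT soft, 172 and 194 in Cav1KO stiff, and 70.7 and 77.1 in Cav1KO soft. Tk1, the thymidine kinase of the salvage route, was at 151 and 167 CPM in WT stiff, 79.0 and 91.0 in WT soft, 167 and 189 in Cav1KO stiff, and 62.1 and 71.1 in Cav1KO soft. On the soft gel the Cav1KO libraries of Rrm2, Tyms and Tk1 were both below the WT libraries, while those of Rrm1 lay between them.

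**Figure D3:**
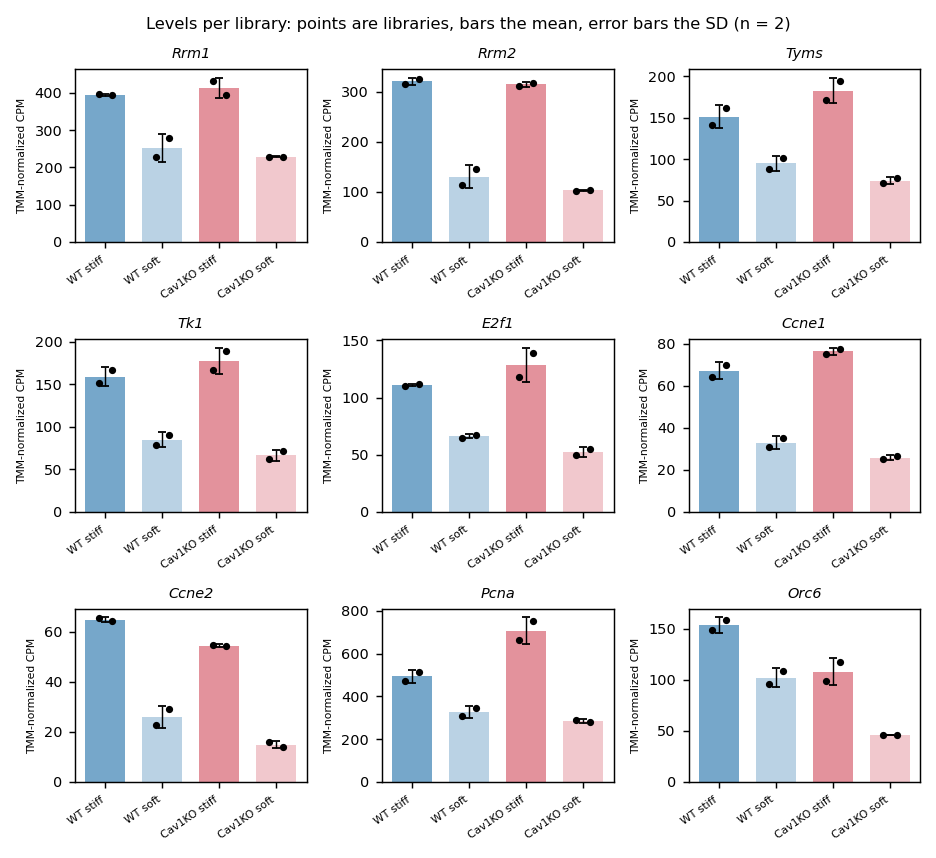
TMM-normalized CPM (vertical axes, from 0) of the 4 nucleotide supply genes, 3 regulators of S phase entry, Pcna and Orc6 in the 4 groups, with libraries as points, the mean as bar and the SD (n = 2) as error bar. In each panel both stiff libraries of a genotype are above both of its soft libraries, and the Cav1KO soft bar is the lowest.

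Of the genes that copy methylation, Uhrf1 rose in both genotypes and Dnmt1 in WT. Uhrf1, which recognizes hemimethylated DNA, was at 408 and 385 CPM in WT stiff, 155 and 214 in WT soft, 448 and 391 in Cav1KO stiff, and 178 and 184 in Cav1KO soft. Of the windows along Uhrf1 transcripts, 12.3% also occur in other annotated genes. Dnmt1, the maintenance methyltransferase (ENSMUSG00000004099, chromosome 9, 20907209 to 20959888), was at 132 and 92.8 CPM in WT stiff, 33.7 and 58.0 in WT soft, 138 and 79.6 in Cav1KO stiff, and 92.5 and 89.1 in Cav1KO soft. For Dnmt1 the Cav1KO stiff libraries lay on either side of the Cav1KO soft libraries. The effect on Dnmt1 was 1.31 ± 0.30 in WT (2.47-fold, limma adjusted p = 0.00748) and lost its call without the first WT stiff library or the first WT soft library. In Cav1KO it was 0.21 ± 0.30 (limma adjusted p = 0.593), and -0.19 without the first Cav1KO stiff library.

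All 3 regulators of S phase entry were higher on the stiff gel in both genotypes, with median differences of 1.004 in WT and 1.53 in Cav1KO in log2(CPM + 1). Ccne2, which encodes cyclin E2 (ENSMUSG00000028212, chromosome 4, 11191351 to 11204779), was at 65.4 and 64.1 CPM in WT stiff, 22.9 and 29.1 in WT soft, 54.8 and 54.2 in Cav1KO stiff, and 15.8 and 13.9 in Cav1KO soft. Its effect in Cav1KO was the largest of the 43 members, 1.81 ± 0.12 (3.51-fold, limma adjusted p = 1.72e-05), and it was 1.29 ± 0.12 in WT (2.45-fold, limma adjusted p = 0.000104). Of Ccne2 exon bases, 17.4% overlap the antisense gene Ints8. E2f1, an activating E2F factor (ENSMUSG00000027490, chromosome 2, 154559407 to 154569892), was at 110.1 and 112 CPM in WT stiff, 65.1 and 67.4 in WT soft, 118 and 139 in Cav1KO stiff, and 49.4 and 55.3 in Cav1KO soft. The Cav1KO libraries of E2f1 were above WT on the stiff gel and below WT on the soft gel.

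The difference between the stiffness effects, WT minus Cav1KO, was then tested with an interaction term. It passed the threshold in 9 members, all with the larger effect in Cav1KO, while in the same direction 6.0% of all genes passed and in the other 4.47%. The median over the members was -0.30 in log2(CPM + 1) (-0.07 over all genes). Of the members, 33 of 43 values were negative, against 6988 of 12494 over all genes. Among the 9 were Pcna (-0.72 ± 0.13, limma adjusted p = 0.0208), Tyms (-0.62 ± 0.15), Orc6 (-0.62 ± 0.14), Gins1 (-0.61 ± 0.15), E2f1 (-0.55 ± 0.14) and Mcm5 (-0.48 ± 0.12). The other 3 were Prim1 (-0.59), Ccne1 (-0.52), which encodes cyclin E1, and Rfc5 (-0.51), a clamp loader subunit. Rfc1 and Dnmt1 had the largest values in the other direction, 1.63 ± 0.49 and 1.10 ± 0.43, and missed the threshold (limma adjusted p = 0.0625 and 0.11). No member passed it in that direction by limma or edgeR, 1 did by DESeq2, and 2 did at an unadjusted p below 0.05.

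These interaction calls changed with single libraries and settings. All 9 calls were lost without the first WT stiff, the second WT soft or either of the Cav1KO soft libraries. By limma with all libraries, 19 members had the larger effect in Cav1KO at an unadjusted p below 0.05. The share of all genes at that p was not counted. Fewer members passed without the second Cav1KO stiff, the first WT soft or the second WT stiff library. More passed without the first Cav1KO stiff library, in which case members also passed in the other direction. Calls over all genes also changed with the library left out, so these changes are not particular to the members. The count of 9 was 7 by edgeR, 12 by DESeq2, 5 with a pseudocount of 0.1, and 1 without the mean-variance trend or with plain CPM in place of TMM scaling. Over all genes, calls in this direction were 541, 723, 492, 391 and 373 in these settings, against 750 in the main fit. Plain CPM also moved the median interaction of all genes by 0.11 on the log2 scale.

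Transcript length moved with the interaction. Across the 43 members, Spearman's rho between the longest annotated transcript and the interaction was 0.64, and 0.39 across all genes. These points share the same 8 libraries, and rho is given as a description. The 5 members with a transcript of 5000 nt or more (Pola1, Pole, Rpa1, Rrm1 and Dnmt1) had a median interaction of 0.46, and the other 38 of -0.33. Their median stiffness effects in log2(CPM + 1) were 0.84 in WT and 0.38 in Cav1KO, against 0.67 and 0.999 for the other 38. Over all genes of 5000 nt or more, the median deviation from each gene's mean was -0.27 in the second Cav1KO stiff library, 0.13 in the first WT stiff library and 0.15 in the first Cav1KO soft library, and for genes under 2000 nt it was 0.16, -0.07 and -0.13 in these libraries. After the trend of each library with transcript length was removed, the stiffness counts were 40 higher in WT and 40 in Cav1KO, and the interaction was called in 4 members with the larger effect in Cav1KO and in 1 with the larger effect in WT.

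**Figure D4:**
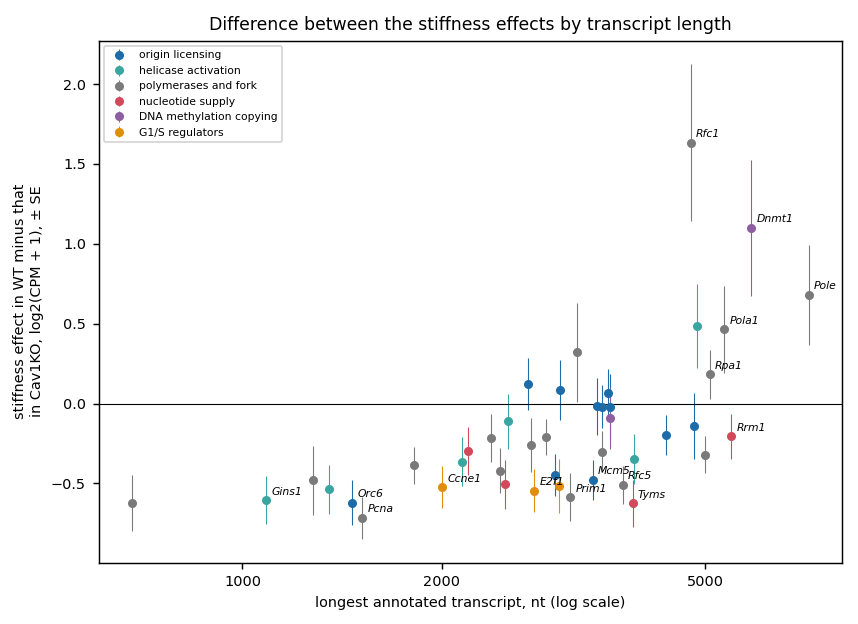
The difference between the stiffness effects (WT minus Cav1KO, log2(CPM + 1), with SE) of each member is drawn against the length of its longest annotated transcript in nt on a log scale, colored by role. Pcna, Orc6 and Gins1, with transcripts under 2000 nt, are below 0. Of the 5 members above 5000 nt, Dnmt1, Pole, Pola1 and Rpa1 are above 0 and Rrm1 is below it at -0.21, and Rfc1, the highest point at 1.63, has a transcript of 4751 nt.

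Genotype was compared on each substrate, and these contrasts use the same libraries as the stiffness effects and the interaction. The sources used here do not say how many cell lines stood for each genotype. Differences between genotypes, also those in the stiffness effect given above, therefore cannot be told apart from differences between cell lines. On the stiff gel, 12 members (27.9%) were higher and 3 (6.98%) lower in Cav1KO than in WT, against 25% and 26.6% of all genes. On the soft gel, 7 members were higher and 13 lower, against 24.1% and 29.9% of all genes. Mcm3, Mcm7, Cdt1, Gins2 and Rfc5 were higher in Cav1KO on both, Orc1, Orc6 and Cdc45 lower on both, and Gins1 higher on stiff and lower on soft, while 17 members passed in neither. Of these calls, those of Mcm3, Mcm7 and Rfc5 on soft were lost without the first WT soft or either of the Cav1KO soft libraries, that of Mcm3 on stiff without the second WT stiff or the first Cav1KO stiff library or without the mean-variance trend, and those of Gins1 on both gels without several single libraries. The shares of members higher on stiff (27.9%) and lower on soft (30.2%) were thus near those of all genes. Differences between roles were not tested, and some of the counts by role are also near the shares of all genes. On the soft gel 3 of 4 nucleotide supply genes (Rrm2, Tyms and Tk1) and 3 of 3 regulators of S phase entry were lower in Cav1KO, and on the stiff gel none of these 7 passed the test. Of the 17 polymerase and fork genes, 5 were higher and 0 lower on stiff, and 2 higher and 2 lower on soft. For the 11 licensing genes the counts were 4 higher and 2 lower on stiff, and 3 and 3 on soft.

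Gins2, a GINS subunit (ENSMUSG00000031821, chromosome 8, 120578633 to 120589304), was at 32.1 and 36.5 CPM in WT stiff, 21.0 and 23.8 in WT soft, 87.9 and 104 in Cav1KO stiff, and 48.9 and 49.8 in Cav1KO soft. It was higher in Cav1KO by 1.45 ± 0.11 on the stiff gel (2.74-fold, limma adjusted p = 1.36e-05) and by 1.11 ± 0.11 on the soft gel (2.15-fold, limma adjusted p = 6.38e-05). However, 67.3% of its exon bases overlap the antisense gene Gse1, which was itself listed at 3.99 to 10.6 CPM. Cdt1 was higher in Cav1KO by 0.83 ± 0.12 on stiff and 0.95 ± 0.12 on soft (limma adjusted p = 0.000476 and 0.000196), without overlap of libraries. In the other direction, Orc6 differed by -0.51 ± 0.10 on stiff and -1.13 ± 0.10 on soft (limma adjusted p = 0.00323 and 3.29e-05), Orc1 by -0.96 ± 0.13 and -0.87 ± 0.13 (limma adjusted p = 0.000427 and 0.000654), and Cdc45 by -0.61 ± 0.11 and -0.98 ± 0.11 (limma adjusted p = 0.0017 and 0.000113). Subunits that work in the same step, such as Orc1 and Orc2 or Cdc45 and Gins2, thus had different calls, and Orc2 passed in neither (0.07 on soft). Effects were not compared between genes by a test. The antisense overlaps of Gins2, Orc1 and Orc2 given above leave their levels uncertain. Rfc1 and Dnmt1 were higher in Cav1KO on the soft gel by 1.34 ± 0.35 and 1.02 ± 0.30 (limma adjusted p = 0.0108 and 0.0195), and both calls were lost without the first WT soft or the first Cav1KO soft library, that of Dnmt1 also without the second Cav1KO soft library.

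The soft-gel differences between genotypes in the nucleotide and S phase entry genes were -0.33 for Rrm2, -0.35 for Tyms, -0.35 for Tk1, -0.34 for E2f1, -0.34 for Ccne1 and -0.76 for Ccne2 in log2(CPM + 1), and -0.14 for Rrm1, which missed the threshold. Without the second WT soft library or the first Cav1KO soft library, 5 members were lower in Cav1KO on the soft gel in place of 13, and 9 without the second Cav1KO soft library. With plain CPM the count of 13 was 6, and the calls for Rrm2, Tyms, Tk1, E2f1 and Ccne1 were lost with their sign kept. The median of all genes also moved by 0.10, and its part in these losses was not tested. The 7 members higher in Cav1KO on soft were 2 without the first WT soft or the first Cav1KO soft library and 3 without the second Cav1KO soft library. On the stiff gel the 3 lower members became 6 without the first Cav1KO stiff library.

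**Figure D5:**
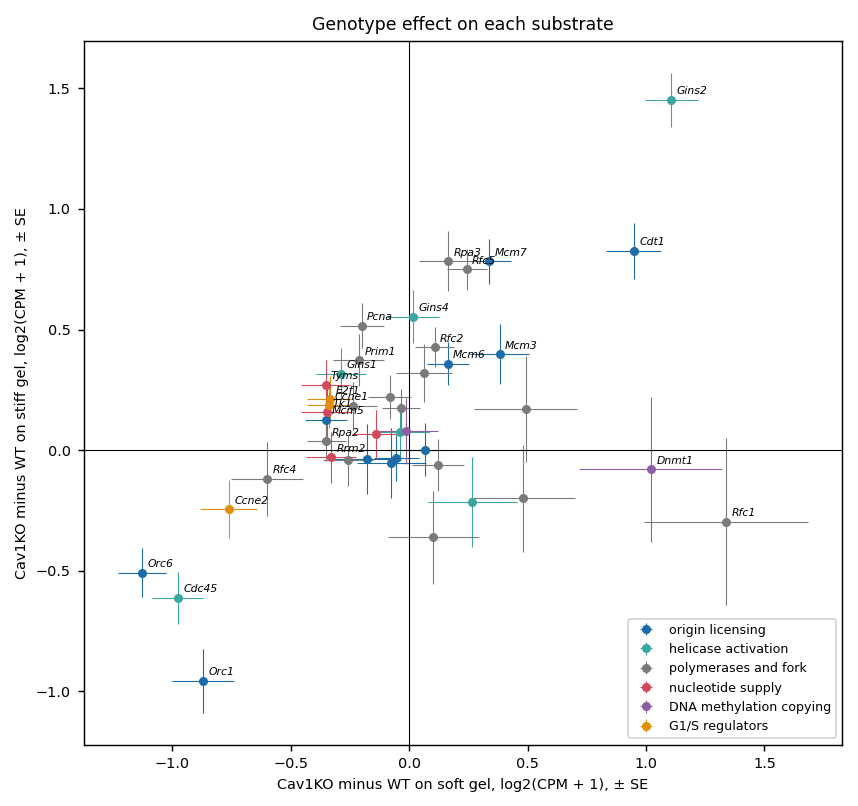
The Cav1KO minus WT difference in log2(CPM + 1), with SE, is drawn for each member on the soft gel (horizontal axis) and the stiff gel (vertical axis), colored by role, and members past the threshold in either are named. Gins2 and Cdt1 are far above 0 on both axes, Orc6, Cdc45 and Orc1 far below 0 on both, and the nucleotide supply genes lie left of the vertical line.

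Most, but not all, other genes of the pathway were also higher on the stiff gel. Of 97 such genes, 72 were higher, 7 lower and 18 not called on stiff in WT (22.1% of all genes higher and 26.3% lower), and 74 were higher, 4 lower and 19 not called in Cav1KO (27.9% and 28.2% of all genes), with median differences of 0.65 and 0.69 in log2(CPM + 1). By role, the counts in WT were 14 of 17 higher for further licensing and origin genes, 18 of 26 for polymerase and fork genes, 27 of 35 for nucleotide genes and 13 of 19 for regulators of S phase entry. In WT the largest rises were those of Cad (1.38), which starts pyrimidine synthesis, and Mybl2 (1.32), a cell cycle transcription factor, and the largest falls those of Adssl1 (-1.53), an adenylosuccinate synthetase, and Pold4 (-0.60), a small polymerase delta subunit. In Cav1KO the largest rises were those of Shmt2 (1.53), which feeds one-carbon units, and Dna2 (1.43), a nuclease and helicase, and the falls those of Top2a (-1.06), a topoisomerase, and Rbl2 (-0.65), an RB family member. The call for Top2a was lost without the second Cav1KO stiff or the first Cav1KO soft library.

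Genes of mitosis act after S phase. Of 38 mitosis genes, 26 were higher and 1 lower on stiff in WT, and 16 were higher and 4 lower in Cav1KO, with median differences of 0.53 and 0.22 in log2(CPM + 1). Over all genes 22.1% were higher and 26.3% lower in WT, and 27.9% and 28.2% in Cav1KO. On the stiff gel 24 of the 38 were lower and 1 higher in Cav1KO than in WT, with a median of -0.46. Over all genes 26.6% were lower and 25% higher. The replication members had 3 lower and 12 higher and a median of 0.13. Their share of higher ones (27.9%) was near that of all genes. On the soft gel 12 mitosis genes were lower (31.6%) and 4 higher, and the share of lower ones was near the 29.9% of all genes. Whether the lists differ from each other was not tested. The mitosis counts were not repeated without single libraries or with the transcript-length trend removed. In the second Cav1KO stiff library, genes of 5000 nt or more had a median deviation of -0.27, and its part in these counts was not tested.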

How the data were processed

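Poly(A) RNA from 500 ng of total RNA was sequenced as single reads of 60 nt in 8 libraries. The submitters' processing notes name CASAVA 1.8.2, cutadapt, RSEM 1.2.3 and GRCm38, and no test for the RNA-seq differences is given in the sources used here. The authors deposited 1 signal per gene and library, a read count scaled to TMM-normalized CPM, for 12528 genes. All values were whole multiples of the value of 1 read (100%, tolerance 0.01), so reads were recovered, 17089836 to 19944952 per library. Intervals and limits from reads cover counting error only.

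A gene was tested if 2 libraries or more reached 1 CPM, which held for 12494 genes. The test was that of limma 3.58.1 (R 4.3.3) on log2(CPM + 1), from 1 fit of the 4 groups that let the variance follow the mean expression and had no replicate block, with 4 residual degrees of freedom. All p-values are two-sided, adjusted by Benjamini-Hochberg across every gene tested and read against 0.05. Fold changes on this scale understate the change of low genes. The count test could not be the main one for scaled values, and edgeR 4.0.16 and DESeq2 1.42.0 were run on the recovered reads as alternatives. Further alternatives were other pseudocounts, filters and scalings, no trend, a replicate block, leaving out each library, and, chosen after seeing the data, removal of the transcript-length trend. A group left with 1 library was assumed to vary like the other groups. The scripts were tested on simulated data.

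Coordinates, transcript lengths and overlaps come from GENCODE M21 (GRCm38), which matched 12451 of 12528 identifiers. Promoters come from RefSeq (GRCm38.p6). No promoter was at hand for Mcm4, Gins1, Gins2, Gins4, Rfc2, Prim2, Pole and Ccne2.

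The members and lists were chosen with earlier results of these data known. Values per library are given for Mcm2 to Mcm7, the nucleotide supply genes, the members with the largest absolute effect of each role in the stiffness effects and the interaction (a second one for licensing and for polymerases and fork), and the largest significant rises and falls of each genotype contrast. Other genes were named by the largest significant rises and falls in their lists.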

Additional observations from a re-analysis of the deposited data

Results flagged for a closer look

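In 13 genes the stiffness effect differed between the genotypes by the interaction test (WT minus Cav1KO, log2(CPM + 1), limma adjusted p below 0.05). Genotype cannot be told apart from cell line in this test. The 9 members had negative values, that is, a larger effect in Cav1KO, which were -0.72 for Pcna, -0.62 for Tyms, -0.62 for Orc6, -0.61 for Gins1, -0.59 for Prim1, -0.55 for E2f1, -0.52 for Ccne1, -0.51 for Rfc5 and -0.48 for Mcm5. Their adjusted p ranged from 0.0208 for Pcna to 0.0473 for Prim1. Among other genes of the pathway named by the rule, the values were -1.18 for Adssl1, an adenylosuccinate synthetase with 2 to 69 reads per library, and -0.81 for Dscc1, a clamp loader subunit of sister chromatid cohesion. They were 0.88 for Ticrr, which helps origins to fire, and 1.63 for Top2a. Top2a was at 238 and 156 CPM in WT stiff, 106 and 159 in WT soft, 147 and 90.6 in Cav1KO stiff, and 248 and 236 in Cav1KO soft. Its substrates overlapped in WT, by the second library of each gel, and did not overlap in Cav1KO. All 13 calls were lost without the first Cav1KO soft library or the second Cav1KO soft library, and transcript length moves with the interaction over all genes, whose part was not tested beyond the removal of the trend.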

How the results depend on the processing

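The stiffness counts held under each alternative. The number of calls over all genes also changed between the settings and with the library left out. Members higher on stiff in WT ranged from 37 to 40 over 12 settings and from 32 to 40 when 1 library was left out, with 0 lower throughout. In Cav1KO both ranges were 37 to 40, with 0 lower over the settings and 0 to 1 when 1 library was left out. Higher counts of the genotype contrast on stiff ranged from 11 to 15 and from 10 to 14, and lower counts were 3 and from 3 to 6. On soft, higher counts ranged from 5 to 9 and from 2 to 9, and lower counts from 6 to 13 and from 5 to 14. Interaction counts ranged from 1 to 12 and from 0 to 14 with the larger effect in Cav1KO, and from 0 to 1 and from 0 to 4 with the larger effect in WT. With plain CPM, 6 members were lower in Cav1KO on soft (13 with TMM scaling) and 1 passed the interaction with the larger effect in Cav1KO. Without the trend that interaction count was 1, with a pseudocount of 0.1 it was 5, and with the length trend removed it was 4. By DESeq2, by quantile normalization and with the length trend removed, 1 member passed it with the larger effect in WT. Leaving out the first Cav1KO stiff library turned the stiffness effect in Cav1KO to -0.19 for Dnmt1, -0.087 for Pole and -0.025 for Lig1, and leaving out the second gave 0.60, 0.61 and 0.52, the lowest and highest values over the libraries left out. With all libraries none of these had passed the threshold. The causes were not tested, beyond the fewer libraries of these fits. Of 2977 alternative values of 149 single-gene results, 2750 kept direction and side of the threshold, 207 fell short of it and 17 newly passed it. Plain CPM moved the median of all genes by -0.11 in the Cav1KO stiffness effect, by 0.11 in the interaction and by 0.10 in the genotype effect on soft, and the calls over all genes split into 2788 higher and 4285 lower (TMM 3488 and 3527), 503 and 373 (TMM 559 and 750), and 3729 and 3032 (TMM 3014 and 3735) in these 3 comparisons. The labels do not say whether libraries of the same number were paired. Correlations of same-numbered deviations ranged from -0.37 (WT stiff with WT soft) to 0.42 (WT stiff with Cav1KO stiff). They cannot decide whether such libraries shared a batch. With a replicate block the counts were 39 higher in WT, 38 in Cav1KO, 11 for the interaction, 14 and 3 for genotype on stiff, and 7 and 13 on soft. E2F letters were in 28.571% of members with the bases before the start alone. Genes with few reads, such as Adssl1, are limited by depth.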

Other observations

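Upstream of the members, Ccnd1, which encodes cyclin D1, was at 495 and 483 CPM in WT stiff, 197 and 219 in WT soft, 365 and 344 in Cav1KO stiff, and 258 and 262 in Cav1KO soft. Its stiffness effect was 1.23 ± 0.07 in WT and 0.45 ± 0.07 in Cav1KO, and the difference of 0.78 ± 0.105 passed the test (limma adjusted p = 0.00726), with adjusted p from 7.64e-07 to 0.0582 over the alternatives. It missed the threshold without either of the Cav1KO soft libraries. The sign of this interaction was opposite to that of E2f1 and Ccne1. E2f6, a repressive member of the E2F family, had 343 and 333 reads in WT stiff and 206 and 216 in WT soft. In Cav1KO it was listed at 0 in 3 libraries and had 1 read in the second Cav1KO soft library, so no fold is given. Both genes were picked after their values were seen. For both, genotype cannot be told apart from cell line.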
